A study of Mus musculus with 4 samples.

Results

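Basigin, its relative embigin, 3 monocarboxylate transporters and the 2 main subunits of lactate dehydrogenase were examined in mouse embryonic stem (ES) cells with and without Snai1. The 7 genes were Bsg, Emb, Slc16a1, Slc16a3, Slc16a7, Ldha and Ldhb. All probe sets that the platform annotation assigned to exactly 1 of these genes were taken, which gave 13 of the 34945 probe sets with a single gene symbol, and 7 of 18193 genes. Transcripts were measured on 4 Affymetrix arrays, 2 of Snai1 knockout ES cells and 2 of control ES cells, and no agent was added beyond the standard culture that both groups shared, with leukaemia inhibitory factor, which maintains self-renewal, and feeder cells. The controls are titled F/F, a term left unexplained, and their source name also contains "knock out". How Snai1 was deleted is not stated in the labels. The direction of every difference rests on the title and the genotype field. The labels call the 2 arrays of a group biological replicates without saying whether they came from separate clones or cultures, so errors and p-values measure only the spread between these samples. Snai1 encodes Snail, a transcriptional repressor of epithelial genes.

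Cells that run glycolysis turn pyruvate into lactate with lactate dehydrogenase, an enzyme built from subunits encoded by Ldha and Ldhb. Lactate then leaves, or enters, with a proton through monocarboxylate transporters (MCTs) of the Slc16 family. MCT1 (Slc16a1) and MCT4 (Slc16a3) reach the cell surface with basigin, a membrane glycoprotein of the immunoglobulin superfamily also called CD147. MCT2 (Slc16a7) pairs mainly with embigin, a relative of basigin. Mouse ES cells are known for a high rate of glycolysis.

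Bsg was among the largest rises in this comparison, at rank 14 from the top among the 34945 probe sets, and the other genes were gathered around it with results in view. The members were thus chosen by their measured values in this same contrast. The differences of all 7 genes are therefore given as a description with standard errors. The number past the threshold in the main fits is given beside its share over all features, with nothing read from it. Across the set, the basigin transcript was higher in knockout cells by a wide margin. Slc16a3 and Ldhb were higher by less, Slc16a1 and Emb were slightly lower, Ldha overlapped between the groups, and the signal of Slc16a7 lay at background.

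RefSeq promoter windows (GRCm38.p6) were found for 5 of the 7 genes and gave 6 windows. Each is here the 250 bases before a start listed for the gene. The windows of Slc16a3 and Ldha lie inside the spans annotated for these genes, which begin further upstream, at 120948484 and 46842274. Distances below are counted from the start that follows each window. Bsg and Slc16a7 were not in the table. The windows were searched on both strands for CACCTG, the E-box that Snail is known to bind, and for CACGTG, the E-box of Myc proteins. They were also searched for ACGTG, a form of the core of the hypoxia response element, which CACGTG contains on both strands. Other forms of that core were not searched. Windows of the 4 genes named next are shown in lower case, 5′ to 3′ on the strand of the gene, with the searched motifs in capitals. Each window shown holds a match, and those of Slc16a1 and Ldha share CACGTG. The Ldhb window, which holds no match, and the other window of Ldha, which holds CACCTG, are not shown. The Emb window lies at chr13:117220323-117220572 on the plus strand, that of Slc16a1 at chr3:104638414-104638663 on the plus strand, that of Slc16a3 at chr11:120948817-120949066 on the plus strand, and the first of the windows of Ldha at chr7:46845554-46845803 on the plus strand.
Emb: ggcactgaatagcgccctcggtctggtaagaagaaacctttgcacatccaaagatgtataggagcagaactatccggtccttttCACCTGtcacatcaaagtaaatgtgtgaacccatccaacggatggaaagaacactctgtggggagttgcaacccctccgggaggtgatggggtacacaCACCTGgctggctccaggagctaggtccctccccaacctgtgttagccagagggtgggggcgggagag
Slc16a1: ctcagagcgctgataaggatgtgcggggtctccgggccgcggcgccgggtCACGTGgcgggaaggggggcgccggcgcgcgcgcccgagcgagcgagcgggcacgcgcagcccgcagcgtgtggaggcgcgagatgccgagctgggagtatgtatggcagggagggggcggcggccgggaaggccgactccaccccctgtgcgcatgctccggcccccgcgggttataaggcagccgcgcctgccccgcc
Slc16a3: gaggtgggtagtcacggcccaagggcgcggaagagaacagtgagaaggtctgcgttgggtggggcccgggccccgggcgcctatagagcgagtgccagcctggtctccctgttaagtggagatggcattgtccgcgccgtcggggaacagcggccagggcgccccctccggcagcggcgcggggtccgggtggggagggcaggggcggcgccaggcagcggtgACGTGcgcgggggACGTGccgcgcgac
Ldha: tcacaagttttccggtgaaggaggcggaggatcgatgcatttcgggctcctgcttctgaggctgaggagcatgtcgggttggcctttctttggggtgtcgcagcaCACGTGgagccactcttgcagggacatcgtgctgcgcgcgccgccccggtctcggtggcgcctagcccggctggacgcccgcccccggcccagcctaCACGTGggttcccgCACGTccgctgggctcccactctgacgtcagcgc

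The Emb window held CACCTG at 2 positions, which began 166 and 68 bases before the start. The Slc16a1 window held CACGTG once, 200 bases before the start. The Slc16a3 window held ACGTG, without the flanking C, at 2 positions, 27 and 14 bases before the start. The Ldha window held CACGTG at 2 positions, 145 and 48 bases before the start, and a further ACGTG on the reverse strand 34 bases before it. The other window of Ldha held CACCTG once, and the Ldhb window held none of the 3 motifs. Of all 32851 windows of this length, 17.2% held CACCTG, 6.02% held CACGTG and 16.6% held ACGTG. These shares are not matched for GC content, which had a median of 52.4% over all windows. It was 76.4% in the Slc16a1 window, 73.6% in that of Slc16a3, 67.2% in the shown window of Ldha and 54.8% in that of Emb. These are matches of letters and do not show binding.

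Bsg was represented by 1 probe set (1456616_a_at). Its log2 expression was 11.02 and 10.84 in the knockout arrays, against 8.12 and 8.54 in the control arrays. The groups did not overlap, and the lower knockout array exceeded the higher control array by 2.30, against a spread of 0.18 between the knockout arrays and 0.42 between the control arrays. The log2 difference, knockout minus control, was 2.60 ± 0.18 (SE), a 6.07-fold higher level. The next difference among the 13 probe sets was smaller by 1.88. In such whole-culture RNA, a change in the number of expressing cells and a change in RNA per cell cannot be told apart.

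**Figure D1:**
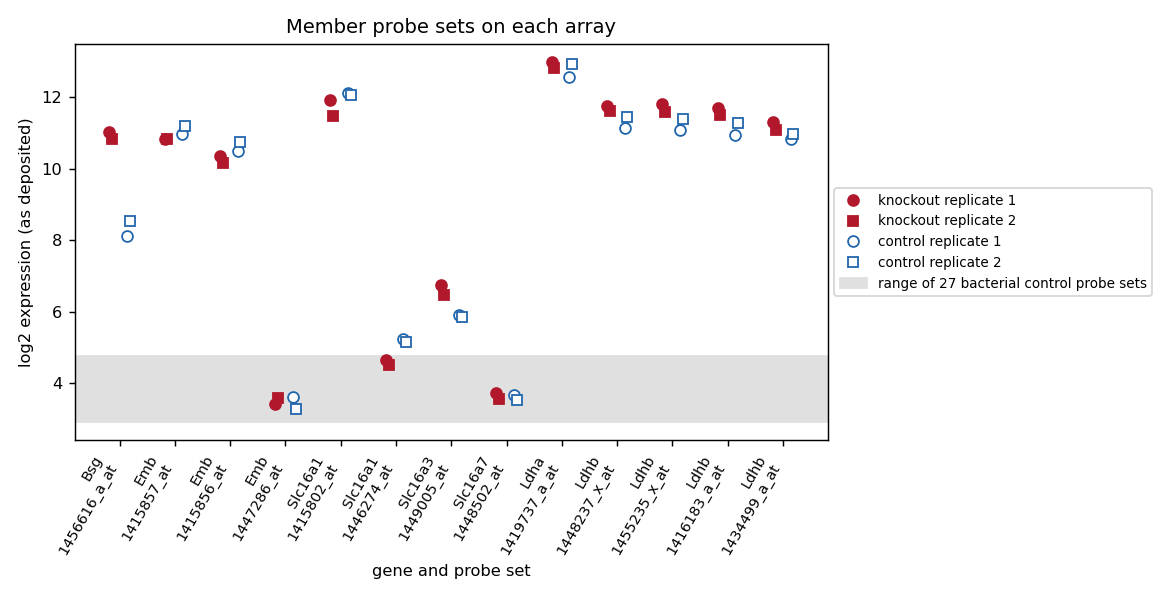
Log2 expression as deposited (y axis) of the 13 probe sets of the 7 genes (x axis) on each knockout array (filled) and each control array (open), with circles for replicate 1 and squares for replicate 2. The Bsg points lie at 11.02 and 10.84 in the knockout arrays, against 8.12 and 8.54 in the control arrays, and the grey band is the range of 27 bacterial control probe sets, 2.91 to 4.77.

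Readings of RNA integrity differed between the same arrays. Control probe sets at the 3′ and 5′ ends of Actb, which encodes beta-actin, differed from each other by 1.11 and 0.80 (log2, 3′ minus 5′) in the knockout arrays, against 3.02 and 2.97 in the control arrays. For the glycolytic gene Gapdh this gap was 0.40 and 0.27 in the knockout arrays, against 1.24 and 1.48 in the control arrays. For Pcx, a pyruvate carboxylase, it read 0.55 and 0.60 in the knockout arrays, against 0.62 and 0.65 in the control arrays, a mean difference of -0.06. The 5′ probe set of the transferrin receptor gene Tfrc lay within the background range on all arrays, so its gap is no reading of integrity, and its 3′ probe set differed by -0.89. The level of the Actb 5′ probe set itself was higher in the knockout by 2.76 and that of its 3′ probe set by 0.71, beside the 2.60 of Bsg. The sources used here do not place the Bsg probe set along its transcript, and the part of RNA quality in the Bsg difference was not tested.

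**Figure D2:**
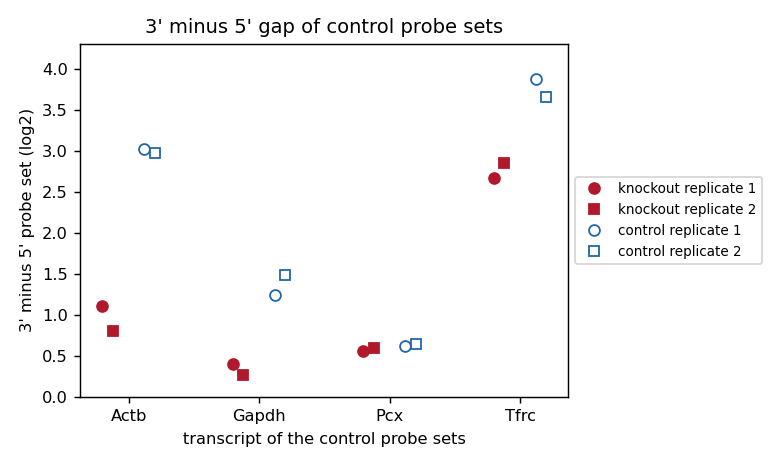
The 3′ minus 5′ gap in log2 units (y axis) of the control probe sets of 4 mouse transcripts (x axis) on each knockout array (filled) and each control array (open). The gap was smaller in both knockout arrays than in both control arrays by 2.04 for Actb, 1.02 for Gapdh and 0.06 for Pcx on average, and the points of Tfrc follow its 3′ probe set alone, since the 5′ signal was background.

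The genes whose pattern over the 4 arrays lay nearest to that of Bsg were found by the Euclidean distance between profiles centred on each gene's mean, over 18193 genes. They were Tecr, which encodes an enzyme of fatty acid elongation (distance 0.45 in log2 units), Ppp1r11, which encodes a phosphatase inhibitor (0.56), the RNA-binding protein gene Lsm2 (0.68), Get3, whose product inserts tail-anchored membrane proteins (0.73), and the centromere protein gene Cenpx (0.74). The median distance of a gene from Bsg was 2.65. Their log2 differences lay between 1.88 and 2.29. The distance depends on the size of the difference. The 6 other members, with differences of at most 0.72, could therefore not be among these 5. The ranking also uses the same contrast by which Bsg was chosen, and nothing is read from it. A further probe set of Tecr was also higher, by 1.56, whereas that of Ppp1r11 differed by -0.03.

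**Figure D3:**
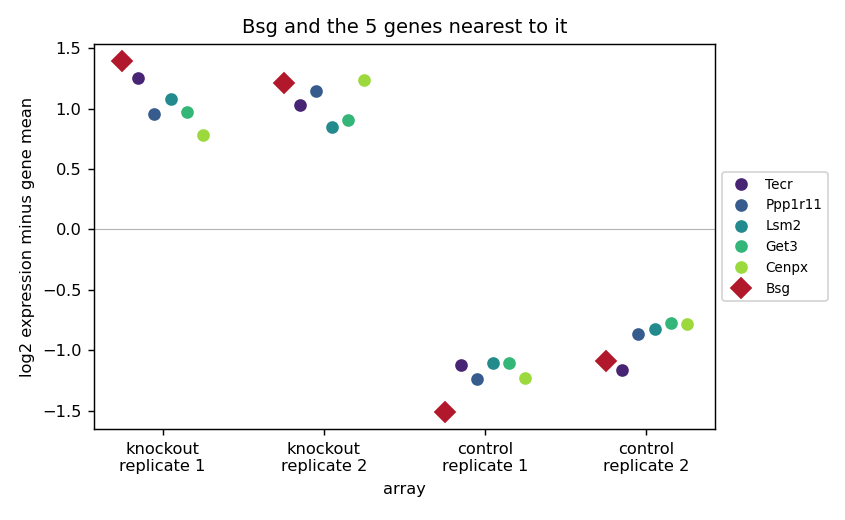
Log2 expression minus the gene's mean over the 4 arrays (y axis) for Bsg (diamonds) and the 5 genes nearest to it (circles) on each array (x axis). In all 6 genes both knockout arrays lie above 0 and both control arrays below it, with log2 differences of 1.88 to 2.60.

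Emb lay on the other side of 0 from Bsg. The brightest Emb probe set (1415857_at) read 10.82 and 10.83 in the 2 knockout arrays, against 10.98 and 11.20 in the 2 control arrays, a log2 difference of -0.26 ± 0.14 (SE). The second (1415856_at) read 10.36 and 10.16 in the 2 knockout arrays, against 10.50 and 10.74 in the 2 control arrays, a log2 difference of -0.36 ± 0.15 (SE). The annotation ties both to the same sequence record, so they are not separate evidence. In both, the knockout arrays lay below the control arrays, by 0.15 at the nearest, which was less than the spread of 0.22 and 0.24 between the control arrays. After the trend of each array with genomic span and mean level was removed, the differences were -0.08 and -0.18. The third Emb probe set (1447286_at) lay within the background range on all 4 arrays.

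Among the transporters, Slc16a3 and Slc16a1 lay on opposite sides of 0. Slc16a3, which encodes MCT4, the exporter typical of strongly glycolytic cells, read 6.74 and 6.47 in the 2 knockout arrays, against 5.90 and 5.86 in the 2 control arrays. The groups did not overlap, and the nearest arrays of the groups were 0.56 apart, beyond the spread of 0.27 between the knockout arrays and 0.04 between the control arrays. The log2 difference was 0.72 ± 0.15 (SE), a 1.65-fold higher level, and 1236 of the 34945 probe sets had a larger rise.

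Slc16a1, which encodes MCT1, the widely expressed lactate transporter, read 11.93 and 11.47 in the 2 knockout arrays, against 12.13 and 12.07 in the 2 control arrays (1415802_at). The groups did not overlap, but they were 0.13 apart at the nearest, less than the spread of 0.46 between the knockout arrays. The log2 difference was -0.40 ± 0.18 (SE), and it ranged from -0.63 to -0.17 with 1 array left out. The lower end came without knockout replicate 1 and the upper end without knockout replicate 2. A dimmer probe set of the gene (1446274_at) read 4.64 and 4.52 in the 2 knockout arrays, within the background range, against 5.25 and 5.15 in the 2 control arrays, a log2 difference of -0.62 ± 0.13 (SE).

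Slc16a7, which encodes MCT2, a transporter of high affinity for lactate and pyruvate, read 3.74 and 3.55 in the 2 knockout arrays, against 3.67 and 3.54 in the 2 control arrays. All 4 values lay within the range of 27 control probe sets for Bacillus transcripts, 2.91 to 4.77 with a median of 3.27, so no direction is given.

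The lactate dehydrogenase subunits differed from each other in how the groups lay. Ldha, the subunit known for favouring the formation of lactate, read 12.99 and 12.81 in the 2 knockout arrays, against 12.57 and 12.93 in the 2 control arrays. The groups overlapped, with a log2 difference of 0.15 ± 0.17 (SE). This difference turned to -0.03 without control replicate 1. The 3 genes nearest to Ldha in pattern were the translation initiation factor subunit gene Eif3d (distance 0.01), the SUMO ligase gene Pias3 (0.03) and the vesicle sorting gene Vps16 (0.03), against a median distance of 0.44.

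Ldhb, the subunit of the heart-type enzyme, had 4 probe sets, and in each both knockout arrays lay above both control arrays. The brightest (1448237_x_at) read 11.75 and 11.61 in the 2 knockout arrays, against 11.15 and 11.46 in the 2 control arrays, a log2 difference of 0.38 ± 0.16 (SE). The others differed by 0.47 ± 0.17 (1455235_x_at), 0.49 ± 0.17 (1416183_a_at) and 0.29 ± 0.15 (1434499_a_at), each with its SE. These are repeated readings of 1 gene on the same 4 RNA samples. The nearest arrays of the groups were 0.10 to 0.22 apart, and control replicate 1 was the lowest array in all 4 probe sets. Without it the 4 differences were 0.22 to 0.33, and over all arrays left out in turn they were 0.17 to 0.66.

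**Figure D4:**
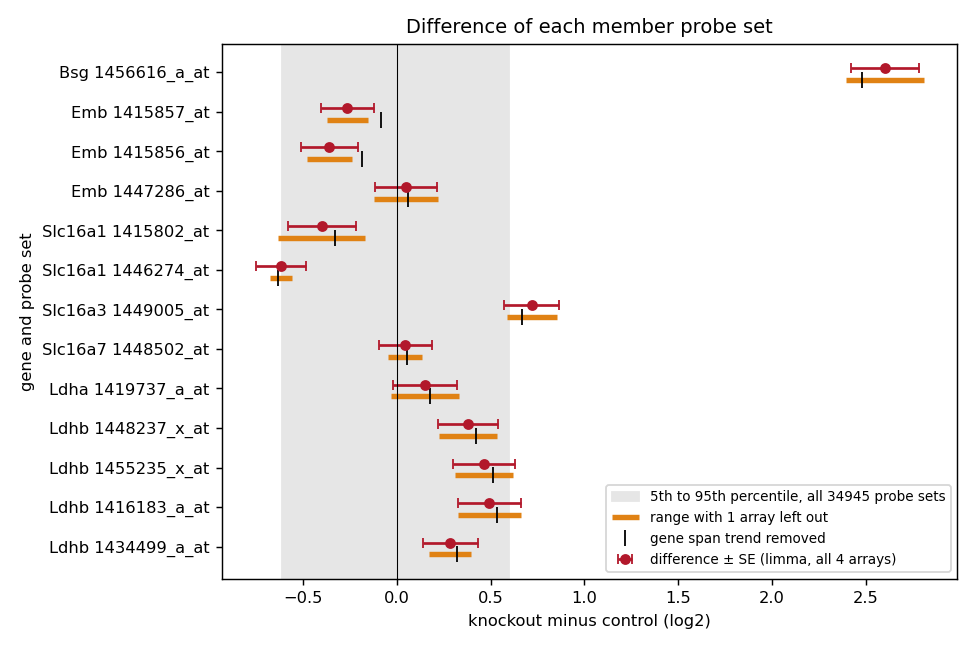
Log2 difference, knockout minus control (x axis), of each of the 13 probe sets (y axis), as points with limma's SE. Orange bars give the range when 1 array was left out. Ticks give the value after removal of the joint trend with gene span and mean level. The grey band holds the 5th to 95th percentile of all 34945 probe sets, -0.61 to 0.60, and Bsg at 2.60, Slc16a3 at 0.72 and the dim Slc16a1 probe set at -0.62 lie outside it.

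In the fit over all probe sets, 1 of the 13 probe sets, that of Bsg, was higher at an adjusted p of 0.05 (limma, Benjamini-Hochberg), where 0.612% of all probe sets were, and none was lower, where 0.177% were (0.79% in either direction). In the fit over genes, each by its brightest probe set, 2 of the 7 genes (Bsg and Slc16a3) were higher, where 1.98% of all genes were, and none was lower, where 2.17% were. Both knockout arrays lay above both control arrays in 6 of the 13 probe sets, against 23.7% of all probe sets, and below them in 4, against 27.8%. Since this comparison chose the genes, nothing is read from these counts. In the fit over genes, Slc16a3 did not pass with an intensity trend, with the span trend removed or with probe sets averaged. With any 1 array left out it did not pass either, whereas Bsg passed in all of these. In the fit over probe sets, Bsg lost its call with 1 array left out, except without control replicate 1. With each array left out in turn, the difference was 2.39 to 2.81 for Bsg and 0.58 to 0.85 for Slc16a3.

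The genes also differ in length. Bsg spans 7.62 kb, Slc16a3 10.5 kb, Ldha 13.4 kb, Ldhb 17.7 kb, Slc16a1 19.8 kb, Emb 53.8 kb and Slc16a7 170.3 kb in the RefSeq annotation, against a median of 20.3 kb over all genes with a span. The 4 shortest had positive differences, though the groups overlapped for Ldha. Slc16a1 and Emb, next in length, had negative ones at their brightest probe sets. Slc16a7, the longest, lay at background with a difference of 0.04. The part of gene length in these differences was not tested. The span trend was removed jointly with that of mean level. After the span trend was removed, Bsg differed by 2.48, Slc16a3 by 0.67, the brightest probe set of Slc16a1 by -0.33, Ldha by 0.18 and the 4 probe sets of Ldhb by 0.32 to 0.53.

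As a check of the cells, the 12 ES cell markers averaged 11.40 and 11.28 in the knockout arrays, against 10.94 and 11.06 in the control arrays. Of these, 4 (Esrrb, Nanog, Pou5f1 and Utf1) were higher in the knockout at an adjusted p of 0.05 in limma, where 1.98% of all genes were. None was lower, and the others did not pass, among them Sox2 with a difference of -0.02. Of 18 markers of fibroblast feeders 17 were measured, at a mean of 7.68 and 6.97 in the knockout arrays, against 7.78 and 7.17 in the control arrays. Of the 17, 14 were higher in replicate 1 of both groups, against 5 of the 12 ES cell markers. The share of all genes with this pattern was not counted. The feeder gene Fap lay within the background range. Means over 9 primitive endoderm, 5 macrophage and 3 red cell markers lay between 4.18 and 5.70. On all 4 arrays 1 of the 9 (Sox7), 2 of the 5 (Ptprc and Adgre1) and 2 of the 3 (Alas2 and Hba-a1) lay within the background range. The other markers exceeded it on at least 1 array, so absence of such cells was not shown. The macrophage marker Cd68 was higher in the knockout by 1.15 ± 0.23 (SE, limma adjusted p = 0.0453). The part of feeder cells in the differences of the 7 genes was not tested. Snai1 itself read 3.79 and 4.04 in the 2 knockout arrays, against 4.41 and 4.69 in the 2 control arrays, all within the background range, so its level does not check the labels.

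Genes with related roles were then read from 5 lists, of which 91 of 99 entries were measured. Of these, 2 rose and 2 fell (4.40%) at an adjusted p of 0.05 in limma. Of all 18193 genes 4.14% passed, 360 higher and 394 lower, and with a further quantile normalization 527 were higher and 337 lower. At an unadjusted p of 0.05, 23.9% of all genes passed, 9.06% higher and 14.9% lower. The 4 list genes that passed at the adjusted p did not pass in the smaller fits with 1 array left out, where their differences stayed at 0.80 to 0.92 for Car4, 0.66 to 0.95 for Slc4a2, -0.85 to -0.69 for Gpt2 and -0.84 to -0.61 for Epas1. The Actb gap differed between the groups on these arrays, and its part in the list differences was not tested.

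Among 12 other monocarboxylate transporters none passed in limma, with 1 higher and 1 lower at an unadjusted p of 0.05, a smaller share than the 23.9% of all genes, and a median difference of -0.07, against -0.02 for all genes. The largest difference was that of Slc16a4, another member of the family, with 5.74 and 5.64 in the 2 knockout arrays against 6.09 and 6.84 in the 2 control arrays (-0.78 ± 0.24, SE, limma adjusted p = 0.0976). It was -0.41 without control replicate 2 and -1.16 without control replicate 1, and the other probe set of the gene, within the background range, differed by 0.07. Among these 12 genes 6 lay within the background range on all arrays. None of 16 basigin relatives, ligands and membrane partners passed in limma, with 5 higher and 2 lower at an unadjusted p of 0.05, where 9.06% and 14.9% of all genes were, and a median difference of 0.09. Itga3, an integrin subunit, differed the most in size, with 8.55 and 7.72 in the 2 knockout arrays against 7.54 and 7.40 in the 2 control arrays (0.66 ± 0.26, SE, limma adjusted p = 0.169). Its difference was 0.25 without knockout replicate 1 and 1.08 without knockout replicate 2, and its other probe sets differed by 0.75 and 0.31. Neuroplastin (Nptn), the remaining relative of basigin and embigin, chosen for mention after its values were seen, had a difference of 0.08 ± 0.15 (SE).

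Among 22 genes of other lactate dehydrogenases and mitochondrial pyruvate use, 1 fell and none rose, with a median difference of -0.10. This was Gpt2, a mitochondrial aminotransferase that interconverts alanine and pyruvate, with 8.20 and 8.04 in the 2 knockout arrays against 8.87 and 8.91 in the 2 control arrays (-0.77 ± 0.14, SE, limma adjusted p = 0.0401). Its other probe sets differed by -0.20, -0.13 and 0.08, and it did not pass when all were averaged (-0.25 ± 0.14, SE, limma adjusted p = 0.367) or with an intensity trend (limma adjusted p = 0.0543). Of 26 regulators and targets of hypoxia and Myc 1 fell and none rose, with a median of -0.12 and, at an unadjusted p of 0.05, 1 higher and 7 lower, where 9.06% and 14.9% of all genes were. Epas1, which encodes the hypoxia-inducible factor HIF-2 alpha, read 9.97 and 9.87 in the 2 knockout arrays, against 10.53 and 10.76 in the 2 control arrays (-0.72 ± 0.15, SE, limma adjusted p = 0.0453), and it no longer passed once the span trend was removed (-0.49 ± 0.14, SE, limma adjusted p = 0.101), with an intensity trend (limma adjusted p = 0.0513) or with its probe sets averaged (limma adjusted p = 0.0754).

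Of 15 genes of proton and bicarbonate transport and lactate sensing, 2 rose and none fell, with a median difference of 0.01. Car4, a membrane-bound carbonic anhydrase, read 7.77 and 7.83 in the 2 knockout arrays, against 6.88 and 7.00 in the 2 control arrays (0.86 ± 0.13, SE, limma adjusted p = 0.0336), and its other probe set differed by 1.64 ± 0.14 (SE). Slc4a2, an anion exchanger of chloride and bicarbonate, read 6.33 and 6.04 in the 2 knockout arrays, against 5.27 and 5.49 in the 2 control arrays (0.81 ± 0.16, SE, limma adjusted p = 0.0453). In the fit with probe sets averaged it kept its difference and did not pass (limma adjusted p = 0.0542).

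**Figure D5:**
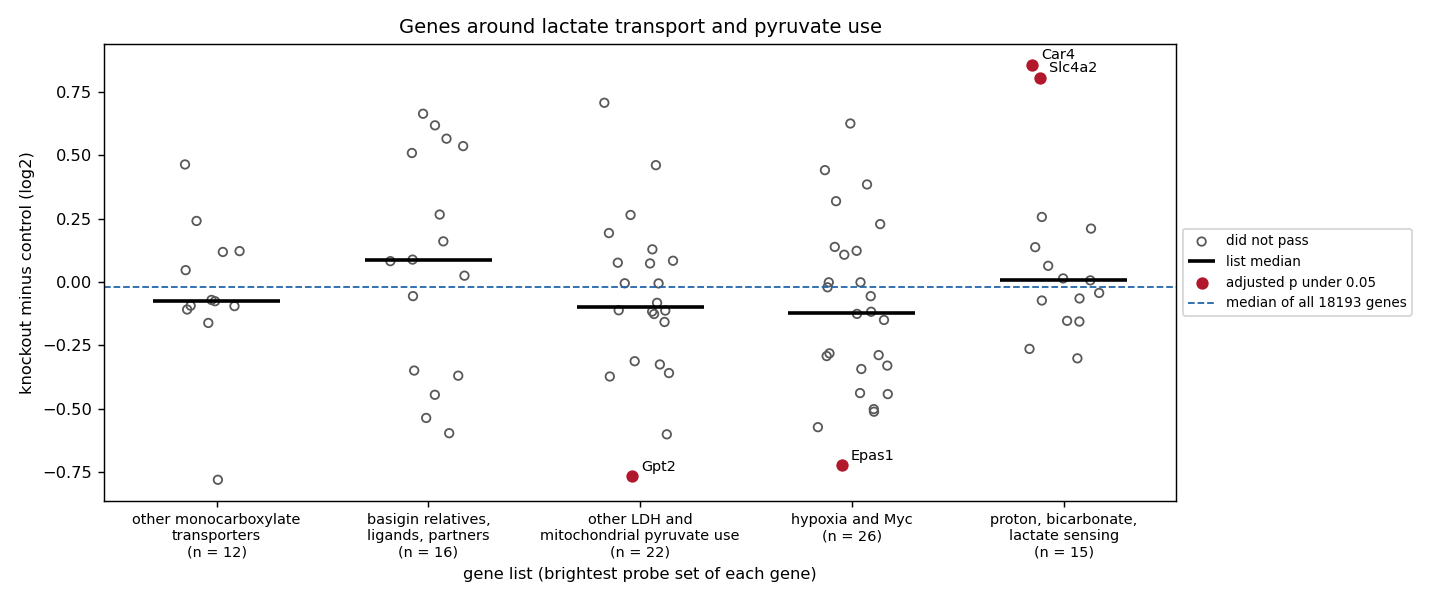
Log2 difference, knockout minus control (y axis), of each measured gene in the 5 lists (x axis), with filled points for genes at an adjusted p under 0.05, black lines for list medians and a dashed line for the median of all genes. The list medians lie between -0.12 and 0.09, and the 4 filled points are Car4 at 0.86, Slc4a2 at 0.81, Epas1 at -0.72 and Gpt2 at -0.77.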

How the data were processed

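Total RNA of ES cells was amplified and biotinylated from the 3′ end and hybridised to single-colour Affymetrix arrays, per the labels' protocols. The deposited values are log2 expression per probe set, 45101 on each array, from 2.56 to 14.78 with array medians of 4.91 to 4.95. RMA and limma are named, without version or settings, per the submitters' processing notes. No further scaling was applied. RMA equalises the distributions of the arrays, so a change common to most genes would not show.

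Groups and replicate numbers came from the sample titles. Of the probe sets, 34945 had 1 gene symbol and were no controls. Knockout minus control was fitted with limma 3.58.1 in R 4.3.3 (eBayes, two-sided, Benjamini-Hochberg), over these probe sets for the 7 genes and over 18193 genes, each by its brightest probe set, for the lists. The fits were tested on simulated data. Genomic span was found for 99.1% of genes. What is called the span trend is the joint trend of each array with span and mean level, removed by loess (span 0.3). The alternatives were an intensity trend or robust eBayes, further quantile normalization, median centring, filters on mean level, a fold minimum, other rules for several probe sets, the replicate block and leaving out each array. The number of arrays limits the precision.

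The genes, lists and tests were chosen with earlier results of these data known. All 13 probe sets, Snai1 and the control probe sets were named whatever their values. In each list up to 3 genes past the threshold with the largest changes were named, or the 1 with the largest change where none passed, and the 5 and 3 genes nearest to Bsg and Ldha.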

Additional observations from a re-analysis of the deposited data

How the results depend on the processing

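Bsg, Slc16a3, both Slc16a1 probe sets, the bright Emb probe sets and the 4 Ldhb probe sets kept their sign under further quantile normalization, median centring and removal of the span trend. Their groups do not overlap, so leaving out an array cannot turn their sign. The sign of Ldha, Slc16a7 and the dim Emb probe set turned with at least 1 array left out. Removal of the span trend moved the differences of the bright Emb probe sets by more than the standard deviation within groups. In the fit over genes, 2 of the 7 genes were called higher (Bsg and Slc16a3) and 0 lower, where 1.98% and 2.17% of all genes were. In the fit over probe sets, 1 of the 13 was called higher (Bsg) and 0 lower, where 0.612% and 0.177% of all probe sets were. With 1 array left out, the Bsg probe set lost its call in that fit, except without control replicate 1. Its difference stayed at 2.39 to 2.81.

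Over all genes, 203 were higher and 58 lower where any probe set of a gene passed, 138 and 32 with a log2 difference of 1 or more, and 224 and 97 with the mean of all probe sets. Lower calls numbered 198 with an intensity trend in eBayes, 198 without the span trend and 699 at a mean level of 6 or more. With 1 array left out, 2 to 46 genes were higher and 2 to 4 lower, where the spread comes from the group that kept 2 arrays and is taken to hold for the single array. The count of higher genes was 2 without control replicate 2, 15 without knockout replicate 2, 23 without knockout replicate 1 and 46 without control replicate 1. Over the 5 lists, 1 rose and 0 fell where any probe set passed or with the mean of all probe sets, 0 and 0 with a log2 difference of 1 or more or with 1 array left out, 1 rose at a mean of 6 or more, 0 fell with an intensity trend and 1 fell without the span trend.

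With the replicate number as a block, 1200 genes were higher and 1892 lower, and 10 list genes rose and 9 fell. Of the 13 probe sets, 2 were then higher (Bsg and Slc16a3) and 1 lower (the dim Slc16a1 probe set). The share of all probe sets called with the block was not counted, and nothing is read from these 3. The labels give the groups shared numbers only. The deviations of the replicate 1 arrays from their group means correlated at 0.29 across genes. The causes of these changes were not tested. Signals within the background range limit what can be said of Slc16a7 and of the dim Emb and Slc16a1 probe sets.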
